A study of Mus musculus with 12 samples.

Results

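Primary mouse adult fibroblasts, abbreviated MAFs, are cells that grow out of pieces of adult mouse tissue in a culture dish. Here they came from wild-type C57BL6/j mice and were kept in a medium rich in serum. A group of 6 libraries was made from cells given 100 µM thymol, a phenolic monoterpene of thyme, for 24 h, and a group of 6 libraries from cells given the same volume of the solvent DMSO for 24 h. Transcripts were measured by QuantSeq, which sequences the 3′ end of polyadenylated RNA, so a level is not divided by gene length. The genes described are 10 parts of the contractile machinery that marks the myofibroblast: *Acta2*, *Actg2*, *Tagln*, *Myl9*, *Mylk*, *Cnn1*, *Cald1*, *Tpm1*, *Tpm2* and *Vcl*. They were chosen by name, and all 10 were among the 10697 genes of the deposited table. The tissue of the biopsies, the number of animals and whether the libraries of a group came from separate cultures are not given in the sources used here, so p-values measure only the spread between these libraries, which may be technical.

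A myofibroblast is a fibroblast that has taken up parts of the smooth muscle cell. It bundles alpha smooth muscle actin into stress fibers, pulls on them mainly with nonmuscle myosin II, and transmits the force to the matrix through focal adhesions. Fibroblasts commonly acquire this state on stiff culture plastic in serum, and transforming growth factor beta favors it. The genes of the contractile apparatus are classic targets of serum response factor (SRF), which binds a DNA element called the CArG box together with a coactivator that is released when actin polymerizes.

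The recovered sequencing depth was 5435985 to 9049796 reads per library over the listed genes, and the levels below are log2 CPM, the logarithm to base 2 of counts scaled to a common library size with a small constant added. The lowest of the 10 genes, *Vcl*, still had a mean of 1971 reads per thymol library and 2479 per DMSO library, and the highest, *Acta2*, had 54699 and 66065. Sequenced reads are copies made by PCR, so read numbers speak of counting error only. The label of the cells was compared with marker genes. The table held 18 of 20 fibroblast markers, whose summed level was 20009 to 21503 CPM with thymol and 21836 to 22952 with DMSO. *Lum* and *Fap* were the markers not in it. All 20 macrophage markers were in the table as well, at a sum of 20949 to 24985 CPM with thymol and 20825 to 22778 with DMSO, so transcripts of these genes stood beside those of the fibroblast markers. Of 13 smooth muscle and mural cell markers 7 were in the table, at a sum of 476 to 605 CPM with thymol and 578 to 655 with DMSO, while *Myocd*, *Rgs5*, *Notch3*, *Kcnj8*, *Abcc9* and *Higd1b* were not in it. In a bulk measurement, fewer cells of a type and less RNA per cell cannot be told apart, and this holds for every value that follows.

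The contractile genes were lower with thymol by small amounts. The log2 fold change, thymol minus DMSO, was below 0 for all 10 genes, against 49.1% of all genes and 49.4% of the 445 genes at least as high as *Vcl*, and its median was -0.19, against 0.0026 over all genes. With limma, adjusted over all 10697 genes at a threshold of 0.05, 3 of the 10 fell and 0 rose. These were *Actg2*, *Tpm2* and *Vcl*. By the same rule 1.57% of all genes fell and 0.654% rose, 2.22% in all, and 4.94% of the 445 high ones fell. At an unadjusted limma p under 0.05, 9 of the 10 genes were lower, the exception being *Cald1*, against 6.44% of all genes and 16.6% of the 445 high ones.

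The number of calls depended on the fit, from 0 of 10 to 9 of 10. It was 9 of 10 with the replicate number as a block, where 2.13% of all genes fell. It was 0 of 10 without the mean-variance trend, where each gene's variance is shrunk to 1 common value and not to a value that depends on its level, and where 0.421% of all genes fell. It was also 0 of 10 when every library was centred on its fibroblast markers, where 0.748% of all genes fell. The fibroblast markers themselves averaged 8.86 ± 0.015 log2 CPM in the DMSO libraries and 8.75 ± 0.045 in the thymol libraries (SD, n = 6 each). They differed by -0.11, with 3 of the 18 lower past the threshold and 0 higher. Relative to them the median log2 fold change of the contractile genes was -0.082, while the median over all genes was 0.11. On that scale the largest difference among the 10 was that of *Actg2*, at -0.17 (limma adjusted p = 0.0904), and *Cald1* turned to 0.049. Their part in the results on the contractile genes was not tested.

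**Figure D1:**
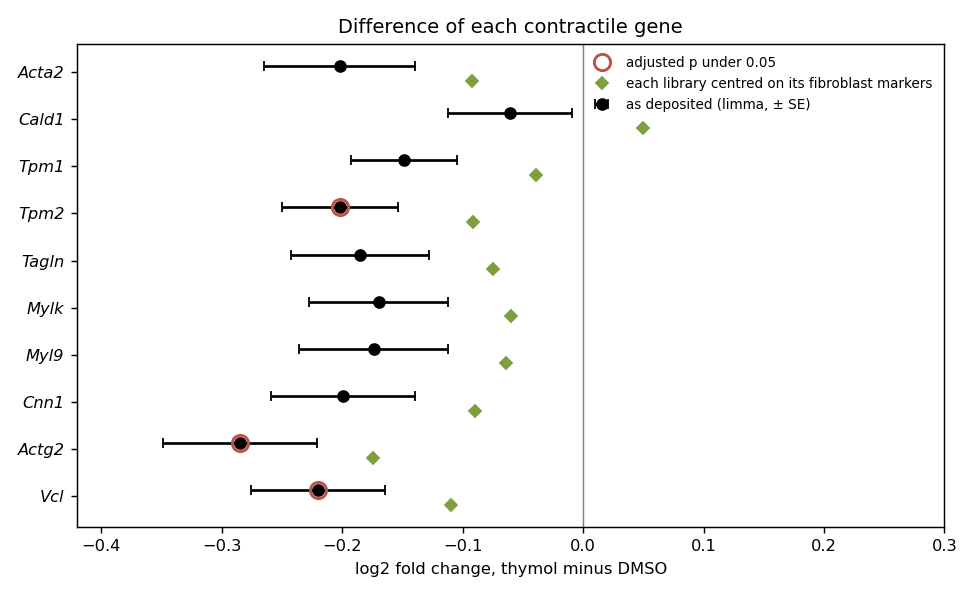
Log2 fold change of the 10 contractile genes, thymol minus DMSO, ordered by level, as black points with the limma standard error, circled in red where the adjusted p was under 0.05, and as green diamonds after each library was centred on its fibroblast markers. All black points lie below 0, from -0.28 for *Actg2* to -0.061 for *Cald1*, and every diamond lies to the right of its point, that of *Cald1* above 0.

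The actins form the filament itself. *Acta2* (chromosome 19, 34241090 to 34255590, minus strand, GRCm38) encodes alpha smooth muscle actin, the defining protein of the myofibroblast, and took a median of 0.948% of all reads with DMSO and 0.779% with thymol. Its level ranged from 13.08 to 13.27 log2 CPM in the DMSO libraries with a median of 13.21, and from 12.71 to 13.30 in the thymol libraries with a median of 12.93. Thymol 2, 3 and 6 lay between 12.71 and 12.81, and thymol 1 at 13.06, all below every DMSO library, but thymol 4 was inside the DMSO range and thymol 5 above it. The means were 12.99 ± 0.25 and 13.19 ± 0.077 (SD, n = 6 each), and the log2 fold change of -0.20 ± 0.063 (SE) did not pass the threshold (limma adjusted p = 0.0746). Without thymol 5 it was -0.26 with an adjusted p of 0.00295 in limma, and it also passed without thymol 1, thymol 4 or DMSO 3, whereas the highest adjusted p with 1 library left out was 0.343.

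*Actg2* (chromosome 6, 83512905 to 83536265, minus strand) encodes gamma smooth muscle actin, the enteric form of the filament. It ranged from 8.54 to 8.84 log2 CPM with DMSO, with a median of 8.62, and from 8.12 to 8.55 with thymol, with a median of 8.39. Only the highest thymol library, number 5, reached into the DMSO range. *Actg2* fell by 0.28 ± 0.064 on the log2 scale (SE, limma adjusted p = 0.00466), from 8.64 ± 0.11 to 8.35 ± 0.19 (SD, n = 6 each), a difference of -17.9% and the largest of the 10. It passed in all 12 fits that each left out 1 library. The log2 ratio of *Acta2* to *Actg2* was 4.64 ± 0.097 in thymol and 4.55 ± 0.083 in DMSO libraries (SD, n = 6 each), with overlapping ranges and a difference of 0.083.

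The DNA before the RefSeq start of *Acta2* is shown because its CArG-like elements are the textbook switch of this gene. The sequence is that of RefSeq for GRCm38.p6, chr19:34255374-34255623 on the minus strand, and ends at the base before the RefSeq transcript start. The gene position above is from GENCODE, which places the start of *Acta2* further upstream, at 34255590. Most of the sequence and the elements in capitals therefore lie inside that GENCODE interval. Capitals mark 2 elements that differ from a CArG box by a single C or G in the core of A and T, at positions -84 to -75 and -34 to -25 when the first transcript base is 0.

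Acta2: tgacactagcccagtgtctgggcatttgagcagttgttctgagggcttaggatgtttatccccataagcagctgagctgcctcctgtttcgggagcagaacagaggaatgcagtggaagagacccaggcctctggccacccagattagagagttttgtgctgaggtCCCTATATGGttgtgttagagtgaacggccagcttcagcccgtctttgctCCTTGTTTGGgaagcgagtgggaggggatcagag

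Such windows, from 250 bases before to 50 after the RefSeq start, were found for 8 of the 10 genes, with 9 windows in all since *Cald1* has a pair. A RefSeq start can differ from the GENCODE gene position. The window of *Mylk*, chr16:34784700-34784999, lies well inside the gene, which starts at 34745210 in GENCODE. *Actg2* and *Tagln* had none. The CArG box, which has the same form on both strands, was in the windows of 2 of the 8 genes, *Myl9* and *Vcl*, and in 1.63% of all 32851 promoters of that length. The form with 1 changed core base was in *Acta2* and *Myl9* and in 8.50% of promoters. CATTCC on either strand, the core bound by TEAD factors, was in 5 of the 8, *Acta2*, *Cald1*, *Mylk*, *Tpm1* and *Vcl*, and in 14.7% of promoters. In *Acta2* it stood at -146 to -141, apart from the CArG-like elements. These are matches of letters in a short window, and nothing was measured here about binding. The windows of *Cnn1* and *Tpm2* held none of these letters.

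*Tagln*, *Cnn1* and *Cald1* encode proteins that lie along the smooth muscle type of actin filament. *Tagln* (chromosome 9, 45929619 to 45936058, minus strand) encodes transgelin, also called SM22 alpha, which bundles actin. It ranged from 9.86 to 10.18 log2 CPM with DMSO, with a median of 9.93, and from 9.59 to 10.03 with thymol, with a median of 9.79. The means differed by -0.19 ± 0.057 (SE, limma adjusted p = 0.0743), so the difference did not pass. Thymol 4 and thymol 5 lay inside the DMSO range and the other 4 below it, and the difference passed without thymol 4 (adjusted p = 0.0114) or DMSO 3 (0.0440). In the annotation the last 1000 bases of *Tagln* overlap *Pcsk7* and *Gm48529* on the opposite strand, and whether the counting used strand is not given in the sources used here. *Pcsk7* was low, at 4.58 with DMSO and 4.45 with thymol.

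*Cnn1* (chromosome 9, 22099216 to 22109630, plus strand) encodes calponin, which binds actin and slows the myosin ATPase. Its 6 DMSO values ran from 9.03 to 9.26 log2 CPM around a median of 9.14, and its thymol values from 8.74 to 9.20 around a median of 9.003. Here thymol 4 lay well inside the DMSO range and thymol 1 at its lower edge, and thymol 3 and 6 were the lowest by a wide gap. The log2 fold change of -0.20 ± 0.060 (SE) had a limma adjusted p of 0.0603. It passed in 4 of the 12 fits with 1 library left out, those without thymol 1, thymol 4, thymol 5 or DMSO 3. *Cald1* (chromosome 6, 34598500 to 34775473, plus strand) encodes caldesmon, which together with tropomyosin holds myosin off the filament. It ranged from 11.78 to 12.07 with DMSO, with a median of 11.97, and from 11.71 to 12.12 with thymol, with a median of 11.88. The groups of *Cald1* overlapped almost fully, with 1 thymol library below and 1 above all DMSO libraries, and the log2 fold change of -0.061 ± 0.051 (SE) was the smallest of the 10 (limma adjusted p = 0.733).

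The tropomyosins are coiled rods that lie in the groove of actin filaments and set which myosins and binding proteins have access. *Tpm2* (chromosome 4, 43514711 to 43523765, minus strand), the beta form, ranged from 10.15 to 10.32 log2 CPM with DMSO, with a median of 10.25, and from 9.93 to 10.18 with thymol, with a median of 10.03. Only thymol 4 reached into the DMSO range. *Tpm2* fell by 0.20 ± 0.048 on the log2 scale (SE, limma adjusted p = 0.0092), from 10.24 ± 0.069 to 10.04 ± 0.098 (SD, n = 6 each), a difference of -13.0%. It passed with any 1 library left out except thymol 3, where the adjusted p was 0.0509. *Tpm1* (chromosome 9, 67022590 to 67049406, minus strand), the alpha form, ranged from 11.51 to 11.63 with DMSO, with a median of 11.57, and from 11.31 to 11.51 with thymol, with a median of 11.42. The top thymol library of *Tpm1*, number 1, just reached into the DMSO range, and the other 5 lay below it, yet the log2 fold change of -0.15 ± 0.044 (SE) missed the threshold (limma adjusted p = 0.0563) and passed it without thymol 1 (0.0121). Over the 924 relabellings of the libraries, the exact two-sided permutation p, not adjusted, was 0.00433 for *Tpm1* and 0.00649 for *Tpm2* (n = 6 each).

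The other tropomyosin genes gave smaller values. *Tpm3* had a log2 fold change of -0.012 (limma adjusted p = 0.973) and *Tpm4* of -0.093 (adjusted p = 0.412). The log2 ratio of *Tpm2* to *Tpm3* was 2.12 ± 0.082 in thymol and 2.31 ± 0.067 in DMSO libraries (SD, n = 6 each). It differed by -0.19, and the ranges overlapped only between 2.21 and 2.22. The same ratio against *Tpm4* differed by -0.11. These ratios were formed after the values of the single genes were known and were not tested.

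The motor arm of the list holds a light chain and its kinase. *Myl9* (chromosome 2, 156775420 to 156781658, plus strand) encodes the regulatory light chain of smooth muscle myosin, whose phosphorylation switches contraction on. It ranged from 9.18 to 9.45 log2 CPM with DMSO, with a median of 9.33, and from 8.92 to 9.39 with thymol, with a median of 9.14. *Mylk* (chromosome 16, 34745210 to 35002420, plus strand) encodes myosin light chain kinase, the calmodulin-dependent enzyme that phosphorylates this light chain. Its level was 9.86 to 10.11 with DMSO, with a median of 9.96, and 9.55 to 10.02 with thymol, with a median of 9.80. In both genes thymol 3 and 6 were far below the DMSO libraries while thymol 1 and 4 were among them. The log2 fold change was -0.17 ± 0.062 (SE, limma adjusted p = 0.162) for *Myl9* and -0.17 ± 0.058 (SE, adjusted p = 0.126) for *Mylk*, and neither passed. Without thymol 1 both passed, with -0.22 and an adjusted p of 0.0184 for *Myl9* and 0.0119 for *Mylk*, which passed without thymol 4 too (0.0437). The last 1000 bases of *Mylk* overlap the antisense gene *Gm21691*.

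The window of *Myl9* is shown because it holds both forms of the element, with the CArG box at -161 to -152 (chr2:156775293-156775322, plus strand, RefSeq, GRCm38.p6) and the form with 1 changed base at -99 to -90 (chr2:156775355-156775384). Capitals mark the elements in 30-base stretches.

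Myl9 box: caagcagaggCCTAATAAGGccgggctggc

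Myl9 changed box: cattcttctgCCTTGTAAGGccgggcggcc

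*Vcl* (chromosome 14, 20929398 to 21033676, plus strand) encodes vinculin, which couples actin filaments to talin and so to integrins at focal adhesions. It ranged from 8.34 to 8.57 log2 CPM with DMSO, with a median of 8.44, and from 8.12 to 8.32 with thymol, with a median of 8.25. It was the 1 gene of the 10 whose groups did not overlap, which was so for 1.16% of all genes in the direction of lower values and for 3.37% of the 445 high ones. *Vcl* fell by 0.22 ± 0.056 on the log2 scale (SE, limma adjusted p = 0.0168), from 8.45 ± 0.085 to 8.23 ± 0.087 (SD, n = 6 each), a difference of -14.1%. The gap between the groups was narrow, at 8.32 to 8.34, and the call was lost without thymol 3 (adjusted p = 0.0750), thymol 6 (0.0635), DMSO 4 (0.0585) or DMSO 6 (0.0573). The end of *Vcl* overlaps *Ap3m1* on the opposite strand, which was at 5.54 with DMSO and 5.42 with thymol and did not pass (log2 fold change -0.12, limma adjusted p = 0.750).

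The upstream window of *Vcl* holds a CArG box at -227 to -218, in capitals (chr14:20929161-20929190, plus strand, RefSeq, GRCm38.p6), and CATTCC on the opposite strand at -143 to -138.

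Vcl box: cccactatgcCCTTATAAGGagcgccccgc

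**Figure D2:**
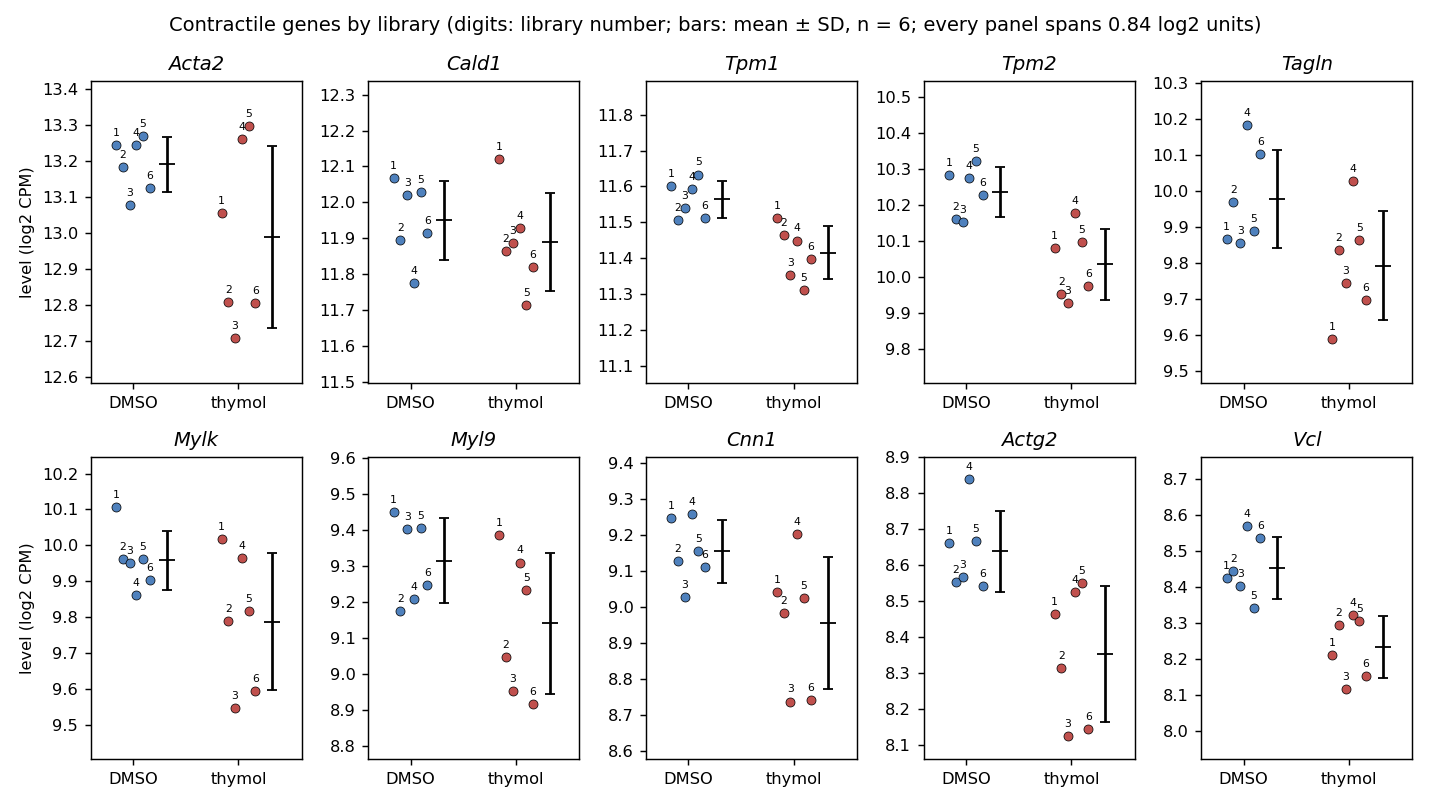
Level of each contractile gene (log2 CPM) in the 6 DMSO libraries (blue) and the 6 thymol libraries (red), with library numbers and the mean and SD beside each group, and the same span of the axis in every panel. The groups are apart for *Vcl* alone, and the thymol values of *Acta2*, *Mylk*, *Myl9*, *Cnn1* and *Actg2* are spread wide, with thymol 3 and 6 low.

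The levels kept 1 order in both groups. *Acta2* stood first at 13.19 log2 CPM with DMSO, followed by *Cald1* at 11.95, *Tpm1* at 11.56, *Tpm2* at 10.24, *Tagln* at 9.98, *Mylk* at 9.96, *Myl9* at 9.32, *Cnn1* at 9.15, *Actg2* at 8.64 and *Vcl* at 8.45. Neighbours whose ranges overlapped were *Tpm2* and *Tagln*, *Tagln* and *Mylk*, *Myl9* and *Cnn1*, and *Actg2* and *Vcl*, in the DMSO and in the thymol libraries. All other neighbours were apart in both groups. In all, the 10 genes took a median of 2.15% of reads with DMSO and 1.93% with thymol, most of it *Acta2*, *Cald1* and *Tpm1*.

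In the contractile genes, thymol libraries differed among themselves more than DMSO libraries did. The SD was wider with thymol for all 10 genes, with a median ratio of 1.54, whereas it was wider for 54.2% of all genes, with a median ratio of 1.05, and for 60.2% of the 445 high ones, with 1.13. The mean over the 10 genes was 9.91 log2 CPM in thymol 3, 9.92 in thymol 6, 10.04 in thymol 2, 10.12 in thymol 5, 10.15 in thymol 1 and 10.22 in thymol 4, while the DMSO libraries lay between 10.20 and 10.30. In thymol 3 and thymol 6 all 10 genes were below their thymol mean, and in thymol 4 none was. Of the same 10 genes, 9 were below their DMSO mean in DMSO 2, 8 in DMSO 3 and 8 in DMSO 6. In DMSO 1, DMSO 4 and DMSO 5 the numbers were 2, 3 and 3. The 8.73 and 8.76 log2 CPM of the fibroblast markers in thymol 3 and 6 lay within the 8.71 to 8.84 of the thymol libraries. The macrophage markers, at 8.62 and 8.69, lay likewise within 8.55 to 8.71. The 7 smooth muscle and mural cell markers averaged 5.20 and 5.04, the lowest of all libraries, where the other thymol libraries had 5.23 to 5.49 and the DMSO libraries 5.29 to 5.44, and their part in the spread was not tested. That average gives each marker the same weight, also low ones such as *Des*, at 2.57 ± 0.75 log2 CPM with thymol (SD, n = 6).

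**Figure D3:**
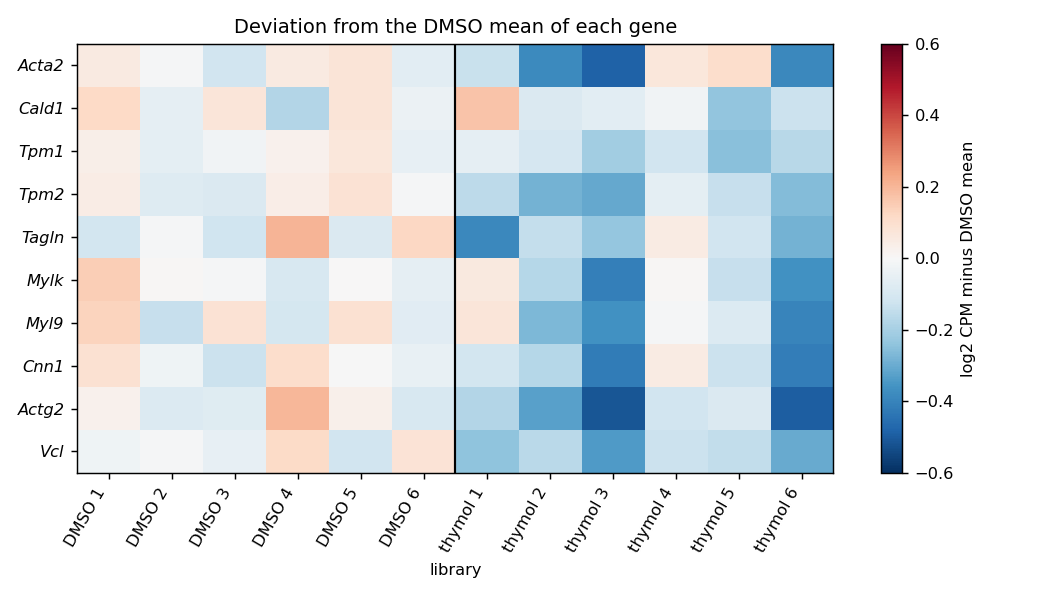
Each cell is the level of a contractile gene in a library minus the mean of that gene over the DMSO libraries (log2 CPM, blue lower, red higher, the line parts DMSO from thymol). Thymol 3 and thymol 6 are the darkest columns, thymol 4 stays near the DMSO level, and *Cald1* stays pale in most libraries.

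The number of genes that fell depended on single libraries. It was 1 of 10 without thymol 3, leaving *Actg2*, against 3 with all libraries, and 1.23% of all genes fell in that fit. It was 2 without thymol 6 (1.15% of all genes) and 3 without thymol 2 (1.33%). It was 8 without thymol 1 (1.84% of all genes), 7 without thymol 4 (1.65%), 5 without thymol 5 (1.65%) and 6 without DMSO 3 (1.51%). The labels give no batch. An earlier look at these data had found odd- and even-numbered DMSO libraries to differ, so the comparison was also made within each kind. The median log2 fold change of the contractile genes was -0.20 in the odd-numbered and -0.19 in the even-numbered libraries, with 0 and 4 of the 10 lower past the threshold in fits of 3 against 3 libraries, where 0.458% and 1.05% of all genes fell. With a term for odd or even numbers in the fit of all libraries it was 6, and 1.78% of all genes. A limma term for the difference between odd and even libraries passed for 0 of the 10 genes and for 0 of all genes (at an unadjusted p under 0.05, 0 of the 10 and 4.96% of all genes). The lowest of the 10 unadjusted interaction p-values was that of *Cald1*, whose log2 fold change was -0.13 in the odd-numbered and 0.011 in the even-numbered libraries (limma, unadjusted p = 0.137).

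Within the groups, several contractile genes varied together from library to library. For each of the 45 pairs, values were centred on their group mean and correlated over the 12 libraries, with 100000 permutations of the library order within groups and adjustment over the 45 pairs. Pearson's r was above 0 for 37 pairs, with a median of 0.49 and a range from -0.64 to 0.89, and 7 pairs passed an adjusted p of 0.05. No such values are given for pairs of other genes, so whether the contractile genes stand out in this is not shown. *Myl9* and *Mylk*, the light chain and its kinase, had r = 0.888 (permutation p = 0.00071, adjusted p = 0.0118) and Spearman's correlation of 0.867 (permutation p = 0.00374, adjusted p = 0.0561). Leaving out the 2 libraries farthest from the median of *Myl9* gave r = 0.808. *Actg2* and *Cnn1* had r = 0.887 (permutation p = 0.00076, adjusted p = 0.0118), a Spearman correlation of 0.881 (permutation p = 0.00117, adjusted p = 0.0263) and r = 0.860 without the 2 farthest libraries. *Acta2* and *Tpm2* had r = 0.878 (permutation p = 0.00079, adjusted p = 0.0118), a Spearman correlation of 0.909 (permutation p = 0.00031, adjusted p = 0.0139) and r = 0.906 without the 2 farthest.

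The smooth muscle actins *Acta2* and *Actg2* had r = 0.877 (permutation p = 0.00344, adjusted p = 0.028), a Spearman correlation of 0.825 (permutation p = 0.00595, adjusted p = 0.0669) and r = 0.799 without the 2 farthest libraries. *Tagln* and *Vcl* had r = 0.808 (permutation p = 0.00373, adjusted p = 0.028), a Spearman correlation of 0.755 (permutation p = 0.0106, adjusted p = 0.0931) and r = 0.697 without the 2 farthest. *Cnn1* and *Tpm2* had r = 0.814 (permutation p = 0.00341, adjusted p = 0.028), a Spearman correlation of 0.727 (permutation p = 0.0172, adjusted p = 0.0997) and r = 0.648 without the 2 farthest. *Actg2* and *Tpm2* had r = 0.810 (permutation p = 0.00747, adjusted p = 0.048), a Spearman correlation of 0.720 (permutation p = 0.0208, adjusted p = 0.0997) and r = 0.797 without the 2 farthest. So 2 of the 7 pairs also passed by Spearman's correlation. *Acta2* fell into 3 low and 3 high thymol libraries, and a value pooled over such clusters can rest on the gap between them. Within the 6 DMSO libraries alone, r was 0.675 for *Acta2* and *Actg2*, 0.832 for *Acta2* and *Tpm2*, 0.784 for *Actg2* and *Cnn1*, 0.673 for *Myl9* and *Mylk* and 0.919 for *Tagln* and *Vcl*.

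*Cald1* and *Tpm1* were in 0 of the 7 pairs. The median r with the other 9 genes was 0.11 for *Cald1* and 0.40 for *Tpm1*, beside 0.34 for *Tagln*, 0.37 for *Vcl* and 0.64 to 0.67 for the other 6. The lowest r of *Cald1* was with *Tagln*, at r = -0.64 (permutation p = 0.0379, adjusted p = 0.136) and a Spearman correlation of -0.61 (permutation p = 0.0498, adjusted p = 0.132), which became -0.78 without the 2 farthest libraries and did not pass. With values centred within odd- and even-numbered libraries, 1 pair passed, *Acta2* and *Actg2* (r = 0.876, permutation p = 0.00093, adjusted p = 0.0418). That test has only 1296 orders and a smallest p of 0.000772. In the other 6 pairs r was 0.937 for *Myl9* and *Mylk*, 0.915 for *Actg2* and *Cnn1*, 0.891 for *Acta2* and *Tpm2*, 0.838 for *Cnn1* and *Tpm2*, 0.830 for *Actg2* and *Tpm2* and 0.691 for *Tagln* and *Vcl*, so r was higher than before in 5 of them while the adjusted p no longer passed.

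The genes most like the list were found by the same group-centred values. Among 5384 other genes with a mean of at least 5, those with the highest r over the 12 libraries to the mean of the scaled contractile genes were *Plpp1*, a lipid phosphate phosphatase, at 0.906, *Fhl1*, a LIM protein of muscle, at 0.896, *Tgfb2*, a transforming growth factor beta, at 0.886, *Lpp*, a LIM protein of focal adhesions, at 0.884, and *Zfp36l1*, a protein that binds AU-rich RNA, at 0.861. They are given as a description, with no test of r. *Tgfb2* fell by 0.58 on the log2 scale (limma adjusted p = 1.12e-05), *Plpp1* by 0.31 (adjusted p = 0.00421) and *Fhl1* by 0.27 (adjusted p = 0.0404). *Lpp*, at -0.15 (limma adjusted p = 0.123), and *Zfp36l1*, at 0.18 (adjusted p = 0.248), did not pass.

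The rest of the contractile system was read from lists of named genes. Of 4 other actins 3 were in the table, and 1 fell. This was *Acta1*, the skeletal muscle actin, whose groups did not overlap and which fell by 0.45 (limma adjusted p = 5.03e-05). *Actb*, the cytoplasmic beta actin, was at 13.72 with thymol and 13.80 with DMSO and did not pass (log2 fold change -0.082, limma adjusted p = 0.458). The log2 ratio of *Acta2* to *Actb* was -0.73 ± 0.20 in thymol and -0.61 ± 0.076 in DMSO libraries (SD, n = 6 each), with overlapping ranges. *Actg1*, the cytoplasmic gamma actin, was listed at only 2.10 and 2.28, and actin genes have near-identical copies whose reads a counting program may leave out, so its value is uncertain. *Acta1* was also the only 1 of 12 striated muscle markers in the table.

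Of 8 myosin II chains 6 were in the table and all 6 had log2 fold changes below 0, but 1 fell and 0 rose. *Myh11*, the smooth muscle heavy chain, fell by 0.37 (limma adjusted p = 0.00696), while *Myh9*, the main nonmuscle heavy chain, differed by -0.019 (adjusted p = 0.943). Of the 20 genes that control myosin phosphorylation, 15 were below 0, and 1 fell, the gene *Rock2* of a kinase that acts on the myosin phosphatase (-0.17, limma adjusted p = 0.0267), with 0 that rose. *Myl9* and *Mylk*, on which these enzymes act or with which they compete, had the same -0.17 without passing. *Rock2* no longer passed without thymol 3, 5 or 6 or DMSO 2 or 6, where its adjusted p reached 0.112, and *Myh11* no longer passed without thymol 6 (0.0645).

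Of 24 partners of the actin filament 23 were in the table, 21 were below 0, 4 fell and 0 rose, with a median log2 fold change of -0.12. *Synpo*, synaptopodin of stress fibers, fell by 0.32 (limma adjusted p = 0.00208), *Csrp1*, a LIM protein of smooth muscle, by 0.26 (adjusted p = 0.0106), and *Tagln2*, the widespread relative of *Tagln*, by 0.20 (adjusted p = 0.0102). The fourth was *Pdlim7*. *Csrp1* no longer passed without thymol 3, thymol 6 or DMSO 5 (adjusted p up to 0.0714). The log2 ratio of *Tagln* to *Tagln2* was 0.25 ± 0.15 in thymol and 0.24 ± 0.18 in DMSO libraries (SD, n = 6 each), with overlapping ranges and a difference of 0.014.

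Of the 20 focal adhesion genes, the neighbours of *Vcl*, 12 were below 0, 2 fell and 0 rose, with a median of -0.047. *Zyx*, zyxin, fell by 0.19 (limma adjusted p = 0.0361), and *Fhl1* is given above. With 1 library left out, *Zyx* kept the call in 6 of 12 fits and lost it without thymol 3 or 6 or DMSO 1, 2, 5 or 6 (adjusted p up to 0.136). *Fhl1* kept it in 4 and lost it without thymol 2, 3 or 6 or DMSO 1, 2, 4, 5 or 6 (up to 0.202). Of 16 regulators of the SRF, YAP and SMAD pathways 14 were in the table, 8 of them below 0, and 0 passed with limma, with 1 at an unadjusted p under 0.05. *Srf* itself was at 4.67 with thymol and 4.87 with DMSO (log2 fold change -0.20, limma adjusted p = 0.666). Of the 12 SRF and YAP response genes outside the contractile list 9 were below 0 and 1 fell, *Crim1* (-0.20, limma adjusted p = 0.0252), with a median of -0.044. It no longer passed without thymol 1, 3 or 6 or DMSO 4 or 6 (up to 0.0746).

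The smooth muscle and mural cell markers gave 2 genes that fell of 7, *Lmod1*, leiomodin of smooth muscle (-0.30, limma adjusted p = 0.00154), and *Myh11*, with 4 below 0, 3 above 0 and 0 that rose. Their median log2 fold change was -0.016, and at an unadjusted limma p under 0.05, 2 were lower and 1 was higher. *Des*, desmin, was near the bottom of the table at 2.57 with thymol and 3.02 with DMSO and did not pass (log2 fold change -0.45, limma adjusted p = 0.577). Endothelial markers, with 2 of 8 in the table, summed to 5.39 to 9.77 CPM and epithelial ones, with 1 of 8, to 2.68 to 10.9 CPM over all libraries. Among the fibroblast markers, the collagen genes *Col3a1* (-0.54, limma adjusted p = 4.42e-10) and *Col1a1* (-0.28, adjusted p = 2.90e-05) fell, as did *Fstl1*, a secreted glycoprotein (-0.25, adjusted p = 0.00496). Among the macrophage markers 2 fell and 2 rose, and their median log2 fold change was -0.0038. The monocyte receptor gene *Cd14* had the smallest p (-0.78, limma adjusted p = 7.32e-10), followed by the protease gene *Ctss* (0.26, adjusted p = 0.000141) and the integrin gene *Itgam* (-0.31, adjusted p = 0.000705).

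**Figure D4:**
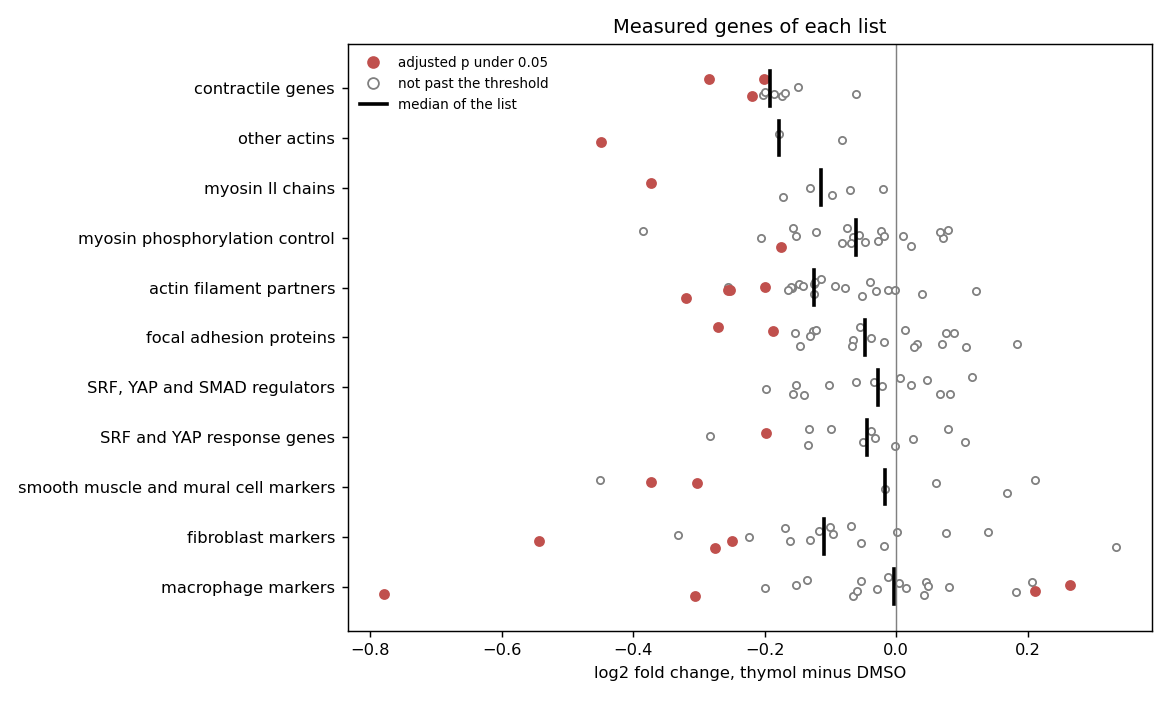
Log2 fold change, thymol minus DMSO, of each measured gene in the contractile list and in 10 other lists, with filled red points for an adjusted limma p under 0.05 and black bars at the medians. The contractile genes lie between -0.28 and -0.061 with a median of -0.19, and the focal adhesion, regulator and response lists lie on both sides of 0.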

How the data were processed

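The authors aligned the reads to GRCm38 (release 101) with STAR 2.5.3, counted them per gene with HTSeq-count 0.6.1, by their account dropped genes that did not reach 30 reads in 6 or more samples, applied TMM scaling and ran edgeR's quasi-likelihood test. What was deposited were log2 CPM values with a prior count added, for 12 libraries, and library sizes were recovered from the equal steps between low values, of which 100% under 200 reads lay within 0.02 of a whole read. Values were fitted with limma 3.58.1 in R 4.3.3 (lmFit, eBayes with trend, 2 groups, no covariate), two-sided, with Benjamini-Hochberg adjustment over 10697 genes. Limma's voom on the recovered reads was an alternative and called 238 genes. On simulated data with changed genes drawn from all levels, the fit called 59 of 102 genes changed by 0.5 on the log2 scale. It called 86 of 98 changed by 1 and 6 of 10497 unchanged genes. No contractile gene differed by as much as 0.5, so a gene that did not pass is not shown to be unchanged. The 10 genes and all lists were chosen with earlier results of these data known. Beside the 10, the text names up to 3 genes with the smallest p per list, the 5 most alike, and close relatives. *Pdlim7*, *Pcsk7* and *Ap3m1* were named after their values were seen. Alternatives were another variance model, scaling, filter, pseudocount, odd or even number, block and omitted library. Positions are from GENCODE vM21 on GRCm38, and promoter windows from RefSeq.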

Additional observations from a re-analysis of the deposited data

Results flagged for a closer look

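In each group of 6 libraries of the contractile genes and the other named genes, Dixon's criterion was applied, which divides the distance of the outermost library from the next one by the whole range. Of 74 groups checked 2 held a library beyond the critical value, and chance alone gives about 1 in 20, here 3.7. None of the 10 contractile genes was among them. *Rock2* stood apart in DMSO 6, at 10.09 log2 CPM. *Srf* stood apart in thymol 1, at 3.90 log2 CPM.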

How the results depend on the processing

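Against 238 genes past the threshold, 57 passed without the mean-variance trend, 660 with libraries centred on the fibroblast markers (80 lower and 580 higher, against 168 and 70) and 70 in the odd-numbered libraries alone. Of the 10 contractile genes, 3 fell with all libraries, 0 without the trend, with centring on the fibroblast markers or in the odd-numbered libraries alone, 5 with quantile normalization (1.55% of all genes) or with libraries centred on their median (1.84%), and 6 with a term for odd or even numbers (1.78%). With the replicate number as a block, 9 fell, all but *Cald1*, against 2.13% of all genes, and 332 genes passed. Over all genes with a mean of at least 5, same-numbered libraries deviated together with correlations of -0.051 to 0.27. By that measure 2 of 6 thymol and 1 of 6 DMSO libraries correlated best with their own number. In the contractile genes the group-centred mean had the same sign in same-numbered libraries at every number. It was 0.088, -0.024, -0.150, 0.158, 0.063 and -0.135 in thymol 1 to 6. In DMSO 1 to 6 it was 0.052, -0.046, -0.044, 0.037, 0.023 and -0.022. What a shared number marks is not given in the labels. The fit with the replicate number as a block treats same-numbered libraries as pairs, but whether they are pairs was not tested. With 1 library left out, 172 to 270 genes passed, 1 to 8 contractile genes fell, 0 rose in each fit, and their median log2 fold change was -0.23 to -0.15. That median was -0.082 after centring on the fibroblast markers. Of the pairs that varied together, 7 past the threshold became 1 with centring within odd- and even-numbered libraries, where r of the other 6 was 0.691 to 0.937. The filter on low values gave 3 contractile genes lower (2.80% of the genes tested), a pseudocount of 1 gave 3 (1.62%), and a pseudocount of 10 (1.68%), voom (1.57%) and the even-numbered libraries (1.05%) gave 4 each. The causes of these shifts were not tested.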
